A study of Mus musculus with 9 samples.

Results

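The genes described here are 31 genes of fatty acid oxidation and ketone use, of 54532 genes in the table. They were taken by symbol from a list that was chosen with earlier results of these data known. All 31 were found by Ensembl identifier and all 31 passed the filter of a mean of at least 0.5 FPKM over the 9 libraries. FPKM are fragments scaled to exon length and to a divisor for each library, so levels of different genes can be set side by side. RNA was taken from the vascular tissue of mice, all C57BL/6 and 24 weeks old, in 3 groups of 3 libraries, and every group carries ApoE-/-, the deletion that makes mice prone to atherosclerosis. The SAHH-WT group is ApoE-/-/SAHHWT. The SAHH-het group is ApoE-/-/SAHH+/-, with SAHH (gene Ahcy), the hydrolase of S-adenosylhomocysteine, heterozygous. The SAHH-het+betaine group is ApoE-/-/SAHH+/- with betaine, a methyl donor that turns homocysteine back into methionine. No source used here gives the dose or duration of betaine, the form of the alleles or whether each library is 1 animal, so p-values measure the spread between these libraries, part of which may be technical.

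Fatty acids are oxidised in mitochondria by a repeated cycle. An acyl-CoA is brought in by the carnitine shuttle, dehydrogenated, hydrated, dehydrogenated again and split by a thiolase, and each turn feeds electrons to the respiratory chain and acetyl-CoA to the citrate cycle. The genes are driven in part by the fatty acid receptors PPAR alpha and PPAR delta, and are most active in heart, brown fat, red muscle and liver. Ketone bodies, made in the liver, are turned back into acetyl-CoA by a short pathway of the same compartment. In vessels, the fat around the artery wall holds brown fat cells beside the smooth muscle and endothelium of the wall itself.

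The libraries held between 15837599 and 17381974 fragments, as read from the smallest step between FPKM values. The divisor behind the FPKM was not this total: it was 1.29 times the fragments recovered in SAHH-WT 1 and 0.777 times in SAHH-het+betaine 3, the extremes. Summed FPKM ran from 279298 in SAHH-WT 1 to 566309 in SAHH-het+betaine 3, while the median ratio to the mean library over tested genes was 0.987 to 1.01 in all 9, so the values are comparable at the median gene and not in sum. No source used here names the scaling. The smallest number of fragments behind any value of the 31 genes was 100, for Ppara in SAHH-WT 1. Apoe was at 2.91, 4.35 and 6.11 FPKM across SAHH-WT, 149, 223 and 225 across SAHH-het, and 5.51, 8.88 and 7.32 with betaine. Values are listed in the order of libraries 1 to 3 of a group, here and below. The Apoe level of the libraries labelled SAHH-het thus goes against the ApoE-/- label, and every direction below that involves SAHH-het rests on these libraries. Ahcy, the targeted gene, was at 11.5, 7.17 and 7.98 FPKM across SAHH-WT, 3.48, 3.89 and 4.75 across SAHH-het, and 7.66, 9.70 and 8.63 with betaine, so the libraries labelled SAHH-het+betaine do not show the lower Ahcy level of those labelled SAHH-het. SAHH-WT 1 stood apart: its 6 adrenal cortex markers summed to 9634 FPKM, against 1.44 to 2.73 FPKM in the other 8 libraries, where Cyp21a1, Cyp11b1 and Cyp11b2 were listed at 0. Smooth muscle markers were present in every library (sums of 60.2 to 215 FPKM), as were endothelial markers (103 to 520.0 FPKM). The sum of 5 kidney tubule markers was below 1 FPKM in every library, with Umod listed at 0 in all 9. The 6 liver cell markers summed to 32.8 to 427 FPKM. Of these 6 genes 1 passed the filter, and Alb, which did not, was at 0.0717 to 1.29 FPKM. The 4 macrophage markers summed to 221 to 885 FPKM.

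The 31 genes moved together across the libraries, and the libraries of a group differed widely. The sum of their levels was 1412, 4730.0 and 6910.4 FPKM across SAHH-WT, 7834, 4317 and 9837 across SAHH-het, and 5533, 9273 and 9663 with betaine. SAHH-WT 1 was lowest by a wide margin, and the groups overlapped in every pair. In SAHH-WT 1, 29 of the 31 genes had their lowest level of all 9 libraries, the exceptions being Cpt1a and Ppard. SAHH-het 3 held the highest level of 13 genes, SAHH-het+betaine 2 of 8 and SAHH-het+betaine 3 of 6.

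**Figure D1:**
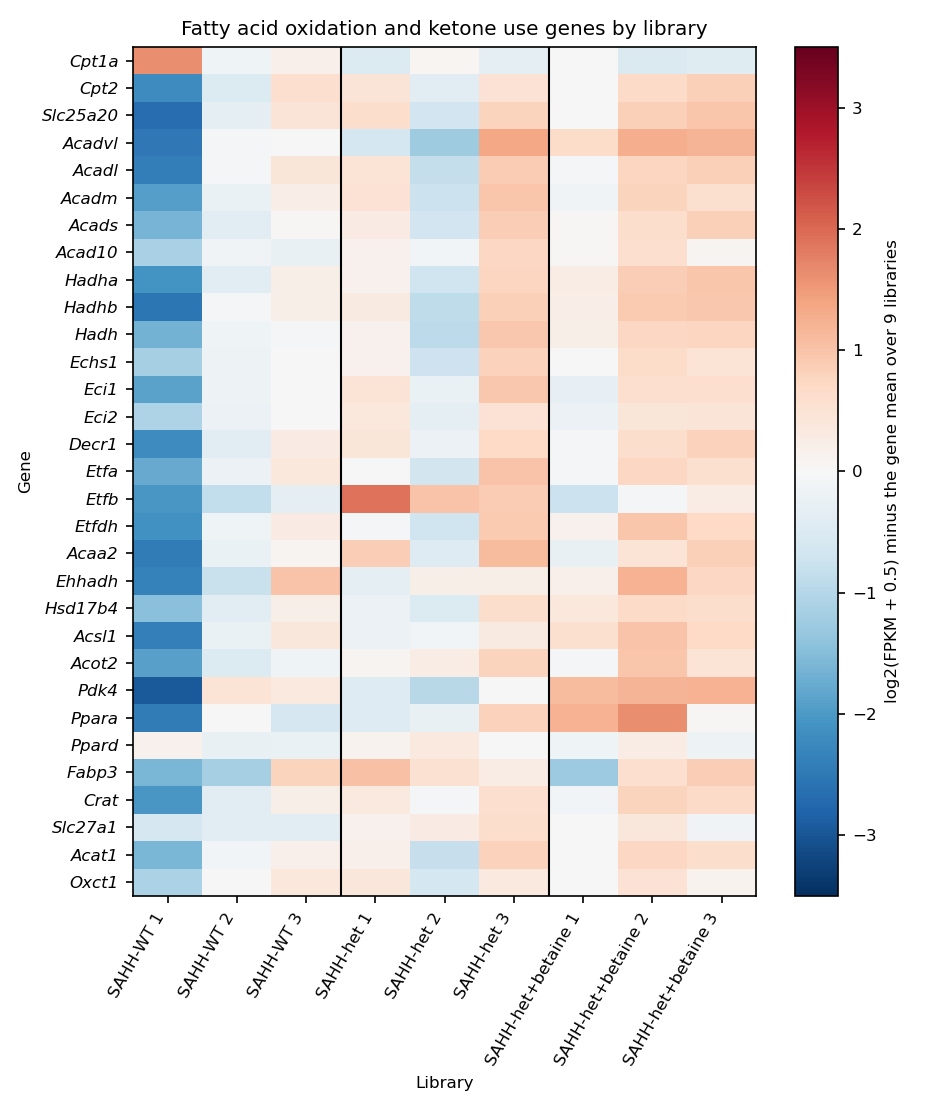
Level of each of the 31 genes (rows) in each of the 9 libraries (columns), as log2(FPKM + 0.5) minus the mean of the gene over the 9 libraries, with vertical lines between groups. SAHH-WT 1 is lowest for 29 of 31 genes, and Etfb is high in the 3 SAHH-het libraries.

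Tissue content differed between the same libraries. The 8 brown fat cell markers, led by the uncoupling protein gene Ucp1, summed to 513, 4085 and 10329 FPKM across SAHH-WT. The sums were 13291, 6275 and 9768 FPKM across SAHH-het and 4964, 10748.5 and 13312 with betaine. Of these 8 genes 7 passed the filter, and Zic1 was listed at 0 in 5 libraries. The library lowest in brown fat markers was thus also lowest in the oxidation genes, and SAHH-WT 2, SAHH-het 2 and SAHH-het+betaine 1, which were the next lowest in these markers, had the next lowest sums of oxidation genes. The 8 skeletal muscle markers summed to 2756, 17.2 and 7.08 FPKM across SAHH-WT, 10305, 669.7 and 3.63 across SAHH-het, and 5.18, 1061 and 1471 with betaine, so libraries with high oxidation genes lay at both ends of that range. Heart muscle markers were highest in SAHH-het+betaine 2, at 713 FPKM, and lowest in SAHH-het 2, at 19.3 FPKM. Myh4 was listed at 0 in 4 libraries, Nppa in 3 and Myh1 in 2. The 7 white or general fat cell markers summed to 1744 to 4188 FPKM across SAHH-WT, 1905 to 6658 across SAHH-het and 2187 to 4490.3 with betaine. Genes of the mitochondrial genome took 9.18% of fragments in SAHH-WT 1 and 11.8% in SAHH-het 2, the lowest shares, and 13.7 to 19.5% in the other 7 libraries. Summed fibroblast markers were lower in all SAHH-het libraries than in the other 6. The 4 genes summed to 97.3, 152 and 152 FPKM across SAHH-WT, 54.6, 68.0 and 80.0 across SAHH-het, and 125, 122 and 149 with betaine. In SAHH-het 4 of 4 were lower than in SAHH-WT (median log2 change -1.26), 4 at an unadjusted limma p under 0.05 (5.16% of all genes were). With betaine 4 of 4 were higher than in SAHH-het without overlap (median 1.18), as were 8.21% of all genes. Being markers of 1 cell type, they are not 4 separate observations. None of the 4 passed in limma. Of the 6 endothelial markers 5 were higher in SAHH-het than in SAHH-WT (50.9% of all genes were), with a median log2 change of 0.80. With betaine 1 was higher than in SAHH-het (49.0% of all genes were) and 5 were lower, with a median of -0.62. Their sums overlapped between the groups, and 0 of the 6 passed in limma. B cell markers summed to 4.75 to 299 FPKM across SAHH-WT, 11.1 to 20.5 across SAHH-het and 22.2 to 147 with betaine. What part these tissues have in the differences below was not tested. The covariate fits given there lean on SAHH-WT 1 and cannot decide it. In bulk tissue, fewer cells of a type and less RNA per cell cannot be told apart.

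**Figure D2:**
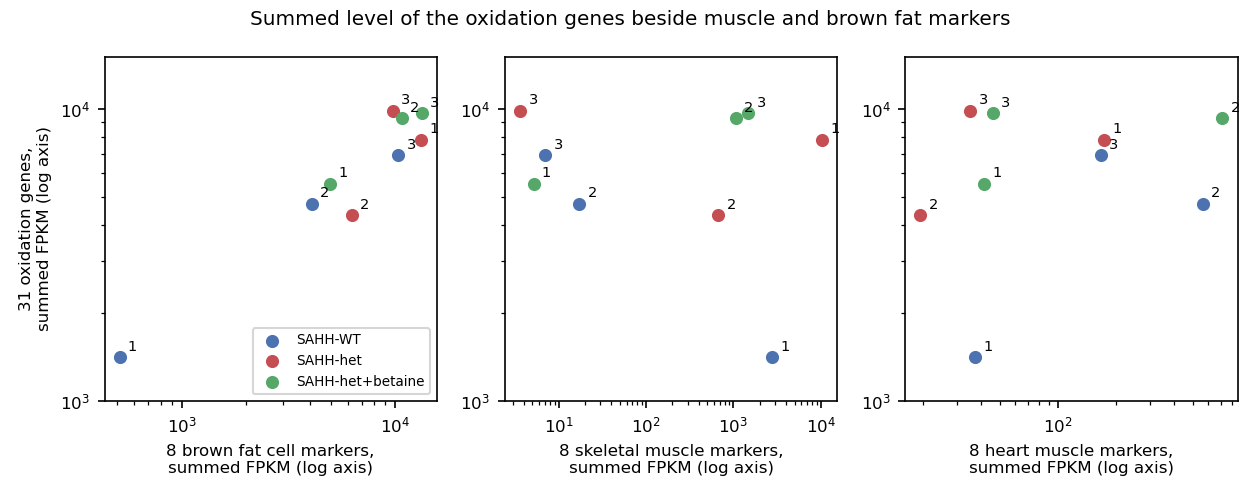
Summed FPKM of the 31 oxidation genes (vertical, log axis) against the summed FPKM of 8 brown fat, 8 skeletal muscle and 8 heart muscle markers (horizontal, log axes), 1 point per library, coloured by group and numbered by replicate. SAHH-WT 1 is lowest on the vertical axis and on the brown fat axis, but not on the muscle axes.

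By the labels, SAHH-het against SAHH-WT asks what a heterozygous SAHH allele does on the ApoE-/- background. The Apoe level also differed between these groups, so the SAHH allele and the Apoe difference cannot be told apart here. Of the 31 genes, 30 were higher (50.9% of all genes were) and 1, Cpt1a, was lower, with a median log2 change of 0.80 on the log2(FPKM + 0.5) scale against 0.010 over the 15610 genes tested. This scale understates changes of low genes. No gene of the 31 passed a Benjamini-Hochberg adjusted p under 0.05 in limma, and over all genes 0.0256% were called. At an unadjusted p under 0.05 there were 4 higher (12.9% of the 31, against 7.3% of all genes) and 0 lower (5.16% of all genes), and limma with voom on the recovered fragments also called 0. In 4 of 31 the SAHH-het libraries all lay above SAHH-WT (8.33% of all genes did), and in 0 they all lay below (8.28%). Without SAHH-WT 1 the median was 0.16 and 24 of 31 were higher. With the brown fat marker level of each library as a covariate the median was -0.00780 and 15 of 31 were higher. That level, the mean log2(FPKM + 0.5) of the markers, was 3.37 in SAHH-WT 1 and 6.12 to 7.43 in the other libraries. The covariate fits, here and below, thus lean on SAHH-WT 1. In them brown fat and other differences of that library, such as its adrenal markers, cannot be told apart.

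By the labels, SAHH-het+betaine against SAHH-het asks what betaine does in heterozygous mice. Apoe and Ahcy levels also differed between these groups, so betaine and these differences cannot be told apart here. In this comparison 23 genes were higher (49.0% of all genes were) and 8 lower, with a median log2 change of 0.29 against -0.0074 over all genes. In limma 0 of 31 were called (0.0192% of all genes were). At an unadjusted p under 0.05, 0 were higher and 1 was lower, Etfb, against 3.63% and 4.4% of all genes (8.03% in either direction), and voom called 0. The groups did not overlap in 2 genes that were higher, Acsl1 and Pdk4 (8.21% of all genes), and in 1 that was lower, Etfb (8.16%). The sign of the median rested on SAHH-het 2. Without that library the median was -0.0719 and 13 of 31 were higher.

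SAHH-het+betaine against SAHH-WT shares libraries with both comparisons above. By the labels these groups differ both in the SAHH allele and in betaine, so allele and betaine cannot be told apart here. Their Ahcy levels, given above, overlapped. Here 30 genes were higher (47.9% of all genes were) and Cpt1a was lower, with a median log2 change of 1.19 against -0.021 over all genes, and 0 of 31 and 0 of 15610 genes passed in limma. At an unadjusted p under 0.05 there were 8 higher (25.8% of the 31, against 5.09% of all genes) and 0 lower (2.93%; 8.01% in either direction), and voom called 0. In 11 of 31 all SAHH-het+betaine libraries lay above all SAHH-WT libraries (9.29% of all genes did), and in 0 they all lay below (7.64%). The genes move with a common level in each library, so these 11 are not 11 separate observations. Without SAHH-WT 1 the median was 0.47 with 30 of 31 higher, and with the brown fat covariate it was 0.26 with 27 of 31 higher.

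**Figure D3:**
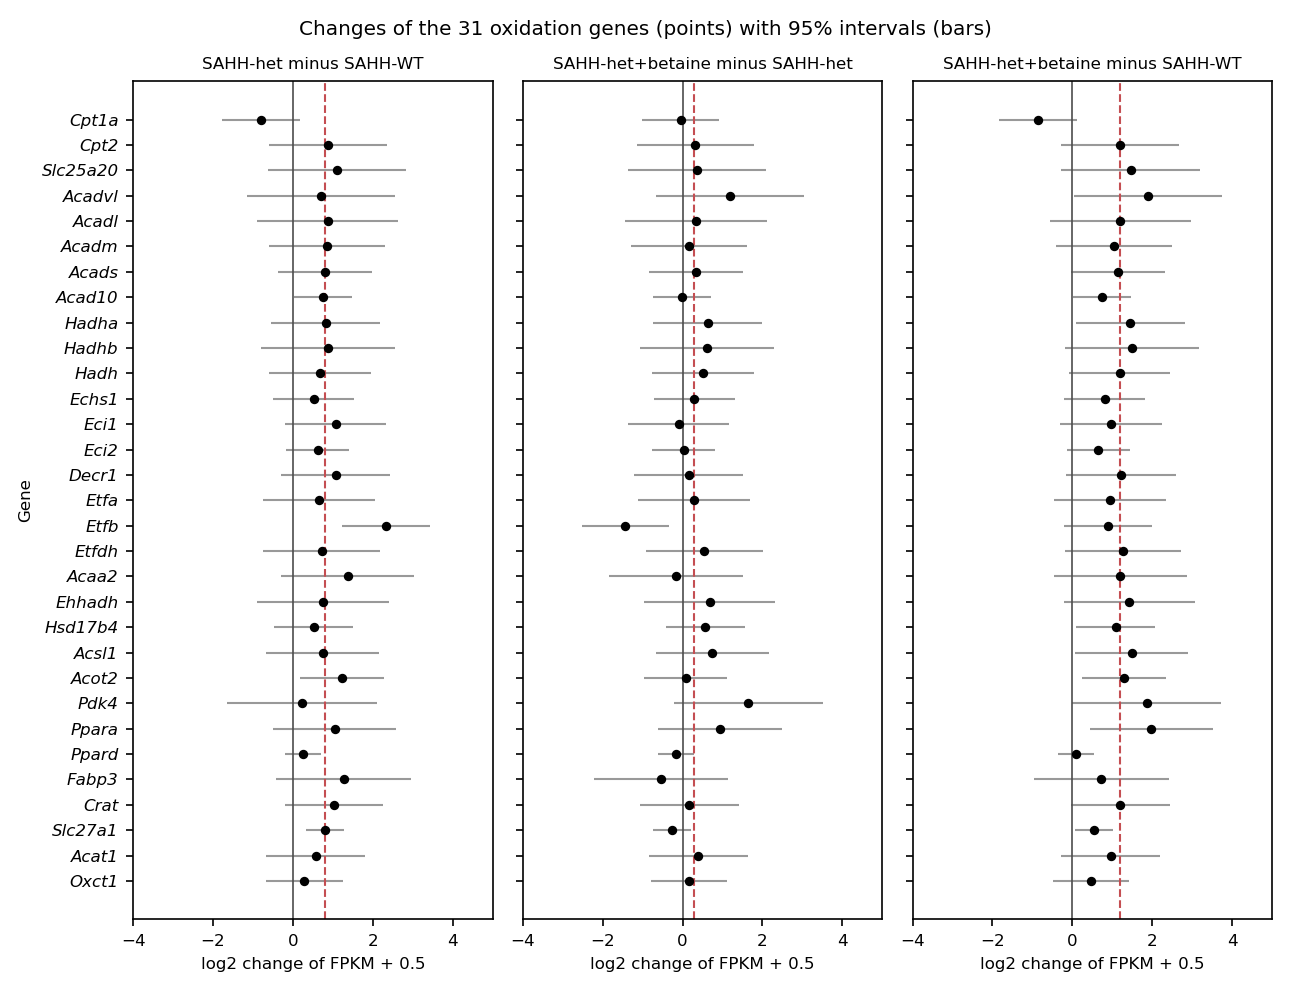
The log2 change of FPKM + 0.5 for each of the 31 genes (points) with its 95% interval from limma (grey bars) in the 3 comparisons, with a dashed line at the median of the 31. Etfb stands to the right of the median in the first panel and to the left in the second, and Cpt1a lies below 0 in the first and last.

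Entry of fatty acids begins with uptake and activation. Slc27a1, a fatty acid transport protein of the cell membrane (ENSMUSG00000031808, chromosome 8, 71568882 to 71587302, GRCm38), was at 43.1, 49.6 and 49.5 FPKM across SAHH-WT, 71.8, 79.1 and 100.1 across SAHH-het, and 64.6, 84.8 and 59.8 with betaine. In the deposited FPKM its SAHH-WT libraries lay close together and below all of the other 6. The log2 change of SAHH-het minus SAHH-WT was 0.80 (SE 0.21, limma adjusted p = 0.304), with a 95% interval of 0.33 to 1.27. A two-sided exact permutation test gave p = 0.1, the smallest that 3 libraries against 3 allow. With betaine against SAHH-WT the change was 0.54 (SE 0.21, limma adjusted p = 0.618), and it stayed above 0 under all alternatives tried in both comparisons, with a limma adjusted p of 0.136 to 0.595 in the first and 0.172 to 0.979 in the second. With the brown fat covariate the SAHH-het and SAHH-het+betaine changes against SAHH-WT were 0.73 and 0.47. With TPM rescaling they were smaller, at 0.49 and 0.14, so they depend on the scaling of the libraries.

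Acsl1, the main acyl-CoA synthetase of fat and heart, had means of 102 ± 74.3, 132 ± 26.6 and 221 ± 34.5 FPKM in SAHH-WT, SAHH-het and SAHH-het+betaine (mean ± SD, n = 3 libraries, in this order below). The SAHH-het+betaine libraries lay above all others, from 192 FPKM, while the highest of the rest was 172 FPKM in SAHH-WT 3. Fabp3, the fatty acid binding protein of heart and brown fat, had 476 ± 438, 896 ± 244 and 717 ± 423 FPKM, with groups that overlapped widely. Acot2, a thioesterase of the mitochondrial matrix, was at 4.76, 13.5 and 17.0 FPKM across SAHH-WT, 20.4, 22.9 and 33.2 across SAHH-het, and 18.3, 37.4 and 26.5 with betaine. The libraries labelled SAHH-het and SAHH-het+betaine lay above SAHH-WT, with log2 changes of 1.23 (SE 0.46, limma adjusted p = 0.376) and 1.30 (SE 0.46, limma adjusted p = 0.618). Without SAHH-WT 1 these were 0.70 and 0.78, and with the brown fat covariate 0.57 and 0.60. Acot1 is a near-identical copy of Acot2, and no source used here says how reads were split between them, so both are uncertain.

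Within the carnitine shuttle, the first enzyme did not follow the others. Cpt1a, the carnitine palmitoyltransferase of the outer membrane and the gate of the pathway (ENSMUSG00000024900, chromosome 19, 3322334 to 3385733), was at 42.3, 11.9 and 15.2 FPKM across SAHH-WT, 9.46, 13.9 and 10.4 across SAHH-het, and 13.4, 9.25 and 9.89 with betaine. SAHH-WT 1, with the adrenal markers, was highest, and the other 8 libraries lay between 9.25 and 15.2 FPKM with overlapping groups. The change of SAHH-het minus SAHH-WT was -0.81 (SE 0.42, limma adjusted p = 0.441), and -0.27 without SAHH-WT 1. Cpt1b, the muscle and brown fat form of the same enzyme and no member of the list, was at 0.262, 0.529 and 0.730 FPKM across SAHH-WT, 2.30, 3.70 and 2.82 across SAHH-het, and 1.46, 1.80 and 1.95 with betaine, 3 levels without overlap. Its change was 1.78 (SE 0.25, limma adjusted p = 0.166) for SAHH-het minus SAHH-WT and -0.61 (SE 0.25, limma adjusted p = 0.606) for betaine.

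The ratio of Cpt1b to Cpt1a within a library was 0.00619, 0.0445 and 0.0480 across SAHH-WT, 0.243, 0.266 and 0.271 across SAHH-het and 0.109, 0.194 and 0.197 in SAHH-het+betaine. Cpt1a had the higher FPKM in every library, and the 3 groups did not overlap in the ratio. Cpt1b rested on only 18 to 223 fragments. Exons that it shares with other genes were not looked for, and the read counter is not named, so its level is uncertain. The exact permutation p was 0.1 in each of the 3 comparisons of this ratio, which was chosen after the values were seen. Slc25a20, the carnitine-acylcarnitine carrier of the inner membrane, was at 11.7, 59.8 and 105 FPKM across SAHH-WT, 118, 48.2 and 132 across SAHH-het, and 77.1, 137 and 149.8 with betaine. Cpt2, which rebuilds the acyl-CoA inside, was at 39.2, 131 and 276 FPKM across SAHH-WT, 248, 139 and 257 across SAHH-het, and 182, 289 and 328 with betaine. Both were lowest in SAHH-WT 1, by a wide margin, and all groups overlapped. Crat, the acetyltransferase that buffers acetyl-CoA on carnitine, also overlapped, with means of 93.0 ± 59.4, 160.3 ± 34.7 and 184 ± 53.9 FPKM.

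The acyl-CoA dehydrogenases take the first electrons, each for a range of chain lengths. Acadl, for long chains, was the most abundant of them, with means of 649.9 ± 462, 997 ± 512 and 1162 ± 356 FPKM. The medium-chain enzyme Acadm had 251, 431 and 447 FPKM and the short-chain enzyme Acads 103, 178 and 209 FPKM, with overlap between all groups in both genes. Acadvl, for very long chains, was at 29.5, 162 and 172 FPKM across SAHH-WT, 113, 71.9 and 438 across SAHH-het, and 265, 413 and 388 with betaine. SAHH-het 3 was the highest of all and the other SAHH-het libraries lay below SAHH-WT 2 and 3, while the betaine libraries lay above SAHH-WT, at a log2 change of 1.89 (SE 0.81, limma adjusted p = 0.618). That change was 1.06 without SAHH-WT 1 and 0.83 with the brown fat covariate. Of the exon bases of Acadvl 42.9% are shared with Dvl2 on the opposite strand, which did not exceed 2.37 FPKM. Acad10, a less studied member of the family, was at 2.75, 6.08 and 5.44 FPKM across SAHH-WT, 7.39, 6.16 and 11.2 across SAHH-het, and 6.80, 10.1 and 7.15 with betaine. The libraries labelled SAHH-het and SAHH-het+betaine lay just above SAHH-WT, at changes of 0.76 (SE 0.32, limma adjusted p = 0.398) and 0.74 (SE 0.32, limma adjusted p = 0.618). Without SAHH-WT 1 these were 0.44 and 0.42, and with the covariate 0.40 and 0.35.

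Electrons from all of these enzymes pass to the electron transfer flavoprotein, a pair of the subunits Etfa and Etfb, and from there to Etfdh in the inner membrane. Etfb was highest in SAHH-het, while Etfa and Etfdh overlapped between all groups. Etfb (ENSMUSG00000004610, chromosome 7, 43444083 to 43457800) was at 18.5, 42.0 and 61.1 FPKM across SAHH-WT, 288, 153 and 142 across SAHH-het, and 45.9, 74.2 and 91.7 with betaine, on 438 to 4633 fragments. All SAHH-het libraries lay above all others, and the other groups overlapped. The SAHH-het mean was 4.79 times that of SAHH-WT (194 ± 81.3 and 40.5 ± 21.4 FPKM), a log2 change of 2.33 (SE 0.48, limma adjusted p = 0.274) with a 95% interval of 1.23 to 3.43. Betaine libraries stood at 0.363 of the SAHH-het mean, a log2 change of -1.43 (SE 0.48, limma adjusted p = 0.559) with an interval of -2.53 to -0.34. The exact permutation p was 0.1 in both, the smallest possible.

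Etfa (ENSMUSG00000032314, chromosome 9, 55454508 to 55512243) was at 105, 313 and 467 FPKM across SAHH-WT, 359, 229.7 and 723 across SAHH-het, and 344, 593 and 534 with betaine, and followed the common level, low in SAHH-WT 1 and SAHH-het 2. Its change of SAHH-het minus SAHH-WT was 0.65 (SE 0.61, limma adjusted p = 0.645). The ratio of Etfb to Etfa was 0.176, 0.134 and 0.131 in SAHH-WT, 0.802, 0.668 and 0.196 in SAHH-het and 0.134, 0.125 and 0.172 in SAHH-het+betaine. SAHH-het 1 and 2 stood far above the rest, and SAHH-het 3 only just above SAHH-WT 1. The exact permutation p of this ratio, chosen after the values were seen, was 0.1 for SAHH-het against each other group and 0.6 for SAHH-het+betaine against SAHH-WT. The ratio of Etfdh to Etfa was 0.136, 0.180 and 0.166 across SAHH-WT, 0.173, 0.168 and 0.166 across SAHH-het, and 0.204, 0.209 and 0.194 with betaine. Its betaine libraries lay above the other 6, with an exact permutation p of 0.1 against each group, and the other groups overlapped (p = 0.7). Etfdh itself had means of 49.4 ± 32.2, 73.5 ± 41.9 and 99.1 ± 27.1 FPKM. With the brown fat covariate the Etfb changes were 1.62 and -1.49, and without SAHH-WT 1 the first was 1.85. Over all alternatives the limma adjusted p ran over 0.135 to 0.595 and 0.246 to 0.970.

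Etfb and Apoe both lie on chromosome 7, with 23.7 Mb between them, and both were highest in the SAHH-het libraries. Whether the 2 levels are linked was not tested. Of the exon bases of Etfb 53.0% are shared with Gm45233 on the same strand, which was listed at 0 in all libraries. The bases before the start sites of Etfb and Etfa are shown because these partner genes differed in level. The sequences come from RefSeq (GRCm38.p6) and run 5′ to 3′ on the strand of the gene, chr7:43443822-43444071 on the plus strand for Etfb and chr9:55512244-55512493 on the minus strand for Etfa. Capitals mark the CCAAT box, searched as CCAAT on both strands, so that it reads ATTGG where it lies on the other strand.
Etfb: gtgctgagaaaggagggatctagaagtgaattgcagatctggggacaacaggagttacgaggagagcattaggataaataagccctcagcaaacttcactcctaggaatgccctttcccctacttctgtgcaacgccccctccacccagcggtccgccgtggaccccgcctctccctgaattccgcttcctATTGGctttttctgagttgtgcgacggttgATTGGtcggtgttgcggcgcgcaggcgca
Etfa: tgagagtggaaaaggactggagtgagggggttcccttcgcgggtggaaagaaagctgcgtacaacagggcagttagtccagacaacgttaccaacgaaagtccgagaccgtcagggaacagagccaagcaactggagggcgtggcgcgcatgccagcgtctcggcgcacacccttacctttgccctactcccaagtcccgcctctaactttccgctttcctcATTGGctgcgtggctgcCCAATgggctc
Each of the pair holds 2 matches. Etfb has its matches at bases -59 and -29 and Etfa at -28 and -11, counted from the start site to the first base of the match. RefSeq start sites were matched for 26 of the 31 genes, with 29 start sites. The CCAAT box lay within the 250 bases before 13 of these 29, and before 33.8% of all 32851 start sites in the table. An exact form of the binding element of PPAR receptors, searched on both strands as AGGTCA, 1 base of any kind and AGGTCA again, was before 0 of the 29 and before 0.0335% of all. With only 11 matches before 32851 start sites, the 0 among 29 does not tell whether these genes hold such an element. The half-site AGGTCA, which the full element contains, was before 4 of 29, those of Acadm, Acadvl, Cpt1a and Echs1, and before 14.0% of all. The E-box, searched as CACGTG, was before 1, that of Slc27a1, and before 6.02% of all.

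**Figure D4:**
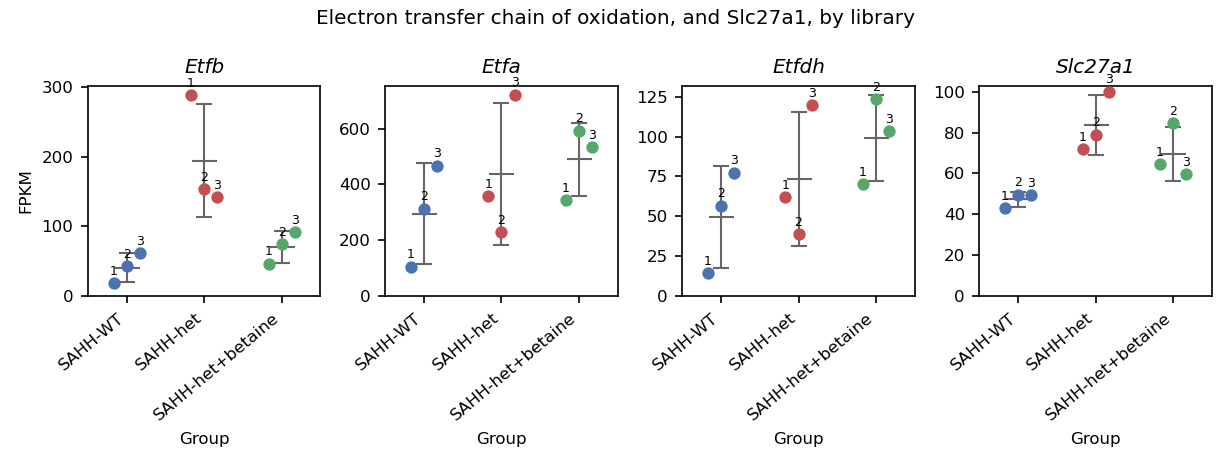
FPKM of Etfb, Etfa, Etfdh and Slc27a1 in each library (coloured points, numbered by replicate) with the group mean and SD (grey bars, n = 3). All 3 SAHH-het libraries lie above the other 6 for Etfb, while the groups overlap for Etfa and Etfdh, and the SAHH-WT libraries lie lowest for Slc27a1.

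The trifunctional protein runs the middle and last steps of the cycle for long chains. Hadha, the subunit with the hydratase and dehydrogenase for long chains, was at 35.5, 115 and 176 FPKM across SAHH-WT, 168, 93.6 and 255 across SAHH-het, and 181, 277 and 299 with betaine. Hadhb, the thiolase subunit of the same complex, was at 41.5, 227 and 279 FPKM across SAHH-WT, 301, 129 and 430.4 across SAHH-het, and 284, 449 and 465 with betaine. In both genes all betaine libraries lay above all SAHH-WT libraries, the lowest betaine value just above the highest SAHH-WT value, and SAHH-het overlapped both. The changes of SAHH-het+betaine minus SAHH-WT were 1.45 (SE 0.60, limma adjusted p = 0.618) for Hadha and 1.49 (SE 0.73, limma adjusted p = 0.618) for Hadhb. They were 0.79 and 0.63 without SAHH-WT 1, and 0.51 and 0.32 with the brown fat covariate. These 2 genes lie head to head on chromosome 5 with 85 bases between their annotated starts in GENCODE M21. The ratio of Hadhb to Hadha was 1.17, 1.98 and 1.59 in SAHH-WT, 1.79, 1.38 and 1.68 in SAHH-het and 1.56, 1.62 and 1.56 in SAHH-het+betaine, while the level of Hadhb itself spanned 11.2-fold.

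Of the matrix enzymes for shorter chains, the hydratase Echs1 had means of 52.7 ± 20.1, 78.2 ± 39.6 and 89.0 ± 19.7 FPKM and the dehydrogenase Hadh 106 ± 52.2, 174 ± 103 and 221 ± 44.2 FPKM. Acaa2, the thiolase that closes the cycle, had the highest mean over all libraries of the 31 genes, 941 FPKM, with 549 ± 361, 1231 ± 586 and 1043 ± 378 FPKM by group. Unsaturated fatty acids need further enzymes. The isomerase Eci1 was at 96.7, 311 and 362 FPKM across SAHH-WT, 491, 300.0 and 684 across SAHH-het, and 289, 532 and 529.7 with betaine, with overlap between all groups and a change of 1.07 (SE 0.56, limma adjusted p = 0.437) for SAHH-het minus SAHH-WT, which was 0.47 without SAHH-WT 1 and 0.28 with the covariate. The isomerase Eci2 and the reductase Decr1 had log2 changes of 0.62 and 1.07 in that comparison and of 0.0295 and 0.15 with betaine (limma adjusted p of 0.462, 0.460, 0.990 and 0.964).

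Peroxisomes shorten very long and branched chains. Their bifunctional enzyme Hsd17b4, also part of bile acid synthesis, was at 24.7, 53.1 and 79.1 FPKM across SAHH-WT, 59.6, 49.4 and 106 across SAHH-het, and 89.0, 109 and 106 with betaine. Betaine libraries lay above SAHH-WT and overlapped SAHH-het, with changes of 1.09 (SE 0.43, limma adjusted p = 0.618) and 0.57 (SE 0.43, limma adjusted p = 0.759). The first was 0.63 without SAHH-WT 1 and 0.46 with the covariate, and the other 0.34 without SAHH-het 2. Ehhadh, the other bifunctional enzyme and a PPAR alpha target in liver, had means of 33.5 ± 34.9, 37.8 ± 7.63 and 62.3 ± 21.9 FPKM with wide overlap.

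Among the regulators, Pdk4 and Ppara had their highest means with betaine, while Ppard varied least of the 31 genes. Pdk4, the kinase that shuts pyruvate dehydrogenase and so spares glucose when fat is burned (ENSMUSG00000019577, chromosome 6, 5483351 to 5496309), was at 32.2, 351 and 319.6 FPKM across SAHH-WT, 184, 126 and 251 across SAHH-het, and 537, 569 and 581 with betaine. The betaine libraries lay close together above all of the other 6. Against SAHH-het their mean was 3.01 times as high (562 ± 22.9 and 187 ± 62.7 FPKM), a log2 change of 1.64 (SE 0.82, limma adjusted p = 0.649), with an interval of -0.23 to 3.51 that includes 0. The exact permutation p was 0.1. With the brown fat covariate the change was 1.55, and across all alternatives it lay between 1.38 and 1.88 with a limma adjusted p of 0.248 to 0.970. Against SAHH-WT the change of the betaine libraries was 1.87 (SE 0.82, limma adjusted p = 0.618), with an interval of -0.0026 to 3.73 that includes 0. That change was 0.75 without SAHH-WT 1 and 0.52 with the brown fat covariate. SAHH-het minus SAHH-WT was 0.23 with limma adjusted p = 0.918 and turned to -0.89 without SAHH-WT 1, which held only 32.2 FPKM of Pdk4. Its sign also turned under TPM rescaling and quantile normalization, to -0.0839 and -0.16, and with sample weights and the brown fat covariate, to -0.47 and -1.02.

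The bases before the Pdk4 start site, chr6:5496310-5496528 on the minus strand, are shown for the gene with the largest log2 change of SAHH-het+betaine minus SAHH-het among the 31 when all libraries are used, less 31 bases next to the start that GENCODE M21 places in an exon. Without SAHH-het 2 the change of Etfb, -1.57, exceeded that of Pdk4, 1.38. Capitals mark the 1 CCAAT box of Pdk4, again on the other strand, and the AGGTCA half-site was not found in the 250 bases.
Pdk4: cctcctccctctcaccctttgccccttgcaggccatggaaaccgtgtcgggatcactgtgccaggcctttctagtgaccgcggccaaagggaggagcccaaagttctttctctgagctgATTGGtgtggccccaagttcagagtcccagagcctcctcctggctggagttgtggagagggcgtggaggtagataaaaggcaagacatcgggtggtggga
Ppara, the receptor that switches on this pathway (ENSMUSG00000022383, chromosome 15, 85734983 to 85802819), was at 1.28, 9.43 and 5.99 FPKM across SAHH-WT, 6.64, 7.70 and 16.7 across SAHH-het, and 22.2, 29.8 and 9.63 with betaine. SAHH-het+betaine 1 and 2 were highest, SAHH-het+betaine 3 lay just above the highest SAHH-WT library, and SAHH-het overlapped both groups. The changes were 1.98 (SE 0.68, limma adjusted p = 0.618) for SAHH-het+betaine minus SAHH-WT and 0.93 (SE 0.68, limma adjusted p = 0.750) for SAHH-het+betaine minus SAHH-het. The first was 1.25 without SAHH-WT 1 and 1.27 with the covariate. Ppard, the widely expressed relative, was at 4.91, 3.52 and 3.59 FPKM across SAHH-WT, 4.74, 5.59 and 4.31 across SAHH-het, and 3.89, 5.28 and 3.79 with betaine. Its highest value was 1.59 times its lowest, the narrowest span of the 31 genes. Its small changes turned sign with TPM rescaling, to -0.0206 for SAHH-het minus SAHH-WT and -0.26 for betaine against SAHH-WT.

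**Figure D5:**
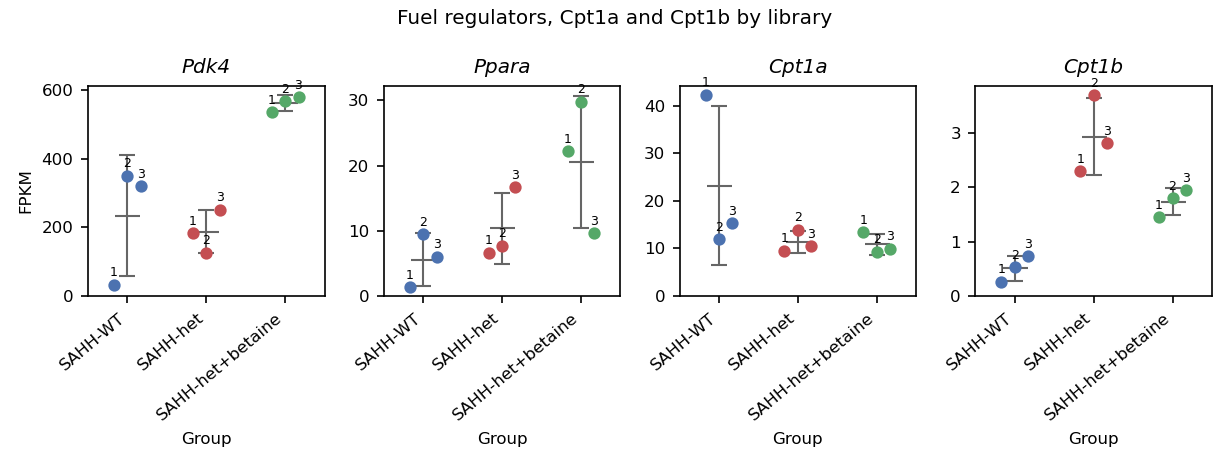
FPKM of Pdk4, Ppara, Cpt1a and Cpt1b in each library (coloured points, numbered by replicate) with the group mean and SD (grey bars, n = 3). The 3 betaine libraries lie between 537 and 581 FPKM for Pdk4, SAHH-WT 1 is highest for Cpt1a, and the groups do not overlap for Cpt1b.

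Ketone use is covered by 2 genes, with overlapping groups in both. Oxct1, the transferase that commits ketone bodies to oxidation, was at 31.1, 66.2 and 87.6 FPKM across SAHH-WT, 88.3, 43.8 and 85.4 across SAHH-het, and 67.2, 96.2 and 73.1 with betaine. Acat1, the thiolase that splits acetoacetyl-CoA, was at 45.1, 127 and 153 FPKM across SAHH-WT, 156, 78.2 and 238 across SAHH-het, and 138, 225 and 211 with betaine. The changes of SAHH-het minus SAHH-WT were 0.29 (SE 0.42, limma adjusted p = 0.767) for Oxct1 and 0.57 (SE 0.54, limma adjusted p = 0.649) for Acat1. Without SAHH-WT 1 they were -0.14 and 0.0294. That of Oxct1 also turned, to -0.0203, with TPM rescaling. The highest Oxct1 value was 3.09 times the lowest, against 5.29 for Acat1 and 9.96 for Acadl.

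How closely a gene followed the others can be read from its level after the median deviation of the 31 genes in each library is taken off. The SD of this remainder over the 9 libraries was 0.15 for Etfa, 0.17 for Acads and 0.18 for Acat1 and Etfdh on the log2 scale, with a median of 0.32 over the 31 genes. Before that step the median SD was 0.90. The genes that followed least were Cpt1a with 1.47, Etfb with 0.95, Ppard with 0.92, Fabp3 with 0.79 and Pdk4 with 0.75. For Etfb the remainder was 1.74, 1.44 and 0.0894 across SAHH-het and between -0.77 and -0.12 in the other 6 libraries. For Pdk4 it was 1.10, 0.47 and 0.53 with betaine, -0.59, -0.54 and -0.78 across SAHH-het, and -1.02, 0.71 and 0.15 across SAHH-WT. For Hadha it was 0.25, 0.15 and 0.29 with betaine, -0.00830, -0.25 and -0.0413 across SAHH-het, and -0.17, -0.18 and 0.00355 across SAHH-WT, the betaine libraries being highest. For Acaa2 it was 0.71, 0.00 and 0.33 across SAHH-het. These values describe the libraries, since the median comes from the same genes.

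Other genes of the pathway were read from lists that were also chosen with earlier results of these data known. In limma 0 of their members passed in any comparison. Over all genes 50.9% were higher in SAHH-het than in SAHH-WT (median log2 change 0.010), and 49.0% with betaine than in SAHH-het (median -0.0074). The alternatives were not followed for these lists. For the 31 genes the median of SAHH-het minus SAHH-WT was 0.80, and 0.16 without SAHH-WT 1 and -0.00780 with the brown fat covariate. Of 12 other genes of mitochondrial oxidation 10 were higher in SAHH-het than in SAHH-WT, with a median log2 change of 0.59, and 6 of 12 were higher with betaine than in SAHH-het, with a median of 0.064. Among them Hsd17b10, a dehydrogenase of short and branched chains, was at 56.2, 87.8 and 142 FPKM across SAHH-WT, 182, 139 and 221 across SAHH-het, and 54.5, 95.8 and 88.0 with betaine. Its betaine libraries lay below all SAHH-het libraries, a change of -1.19 (SE 0.38, limma adjusted p = 0.559). Ech1, a dienoyl-CoA isomerase, had means of 219, 489 and 405 FPKM.

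Of 16 other peroxisomal genes 15 were higher in SAHH-het than in SAHH-WT (median 0.48) and 13 with betaine than in SAHH-het (median 0.13). The thioesterase Acot4 had means of 0.911 and 2.40 FPKM in SAHH-WT and SAHH-het (limma adjusted p = 0.282), and the thiolase Acaa1a of 32.9 and 49.9 FPKM (limma adjusted p = 0.364). The lipid carrier Scp2 was the most abundant of them, with 189, 231 and 274 FPKM. Fatty acid supply genes numbered 12, of which 11 were higher in SAHH-het than in SAHH-WT (median 0.84). The hormone-sensitive lipase gene Lipe had log2 changes of 1.15 there and 0.11 with betaine, the transporter Slc27a4 had 0.46 and -0.0660, and the fat cell binding protein Fabp4 had 1.19 and -0.21.

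Ketone production and transport gave 6 tested genes of 7 listed, 5 higher and 1 lower in SAHH-het than in SAHH-WT (median 0.41). Aacs, which uses acetoacetate for lipid synthesis, was the most abundant of the list, with 51.6, 86.8 and 109 FPKM.

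Of 11 coactivators and fuel regulators 9 were higher in SAHH-het than in SAHH-WT (median 0.89) and 7 with betaine than in SAHH-het (median 0.045). The nuclear receptor Esrra, which drives mitochondrial genes, was at 14.9, 31.2 and 49.3 FPKM across SAHH-WT, 73.7, 61.0 and 103 across SAHH-het, and 50.9, 95.1 and 83.2 with betaine, with the libraries labelled SAHH-het and SAHH-het+betaine above SAHH-WT, at changes of 1.43 (SE 0.44, limma adjusted p = 0.351) and 1.36 (SE 0.44, limma adjusted p = 0.618). The coactivator Ppargc1b had 4.85, 12.2 and 10.0 FPKM. Acacb, whose product malonyl-CoA blocks CPT1, had 60.3, 116 and 159.9 FPKM. Of 6 other PPAR target genes 5 were higher in SAHH-het than in SAHH-WT (median 0.90). The lipid droplet genes Plin5 and Plin2 had log2 changes of 1.76 and 0.97 there, and the thioesterase Acot1 had 1.70.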

How the data were processed

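The 9 RNA-seq libraries, 3 in each group, came from vascular tissue of mice. The submitters' processing notes name HISAT2 2.0.5 and the build mm10. No source used here names the read counter or annotation. The values the authors deposited are FPKM, 1 column per library without pooling.

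Symbols matched 54409 of 54532 genes, and exon lengths came from GENCODE M21 (GRCm38, the assembly mm10 names). FPKM times exon length fell in steps of 1 fragment, with 98.1 to 98.6% of values below 200 fragments whole within 0.1, which gave each library's fragments and the divisor behind its FPKM, which differ. The precision of a level is limited by 3 libraries per group.

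Groups were compared with limma 3.58.1 (R 4.3.3; eBayes with trend, not robust), two-sided, on log2(FPKM + 0.5), with 3 group means of 9 libraries in 1 fit (6 residual degrees of freedom). Genes entered from a mean of 0.5 FPKM upwards (15610 genes), with Benjamini-Hochberg adjustment over all of them. The script was tested on simulated data. Single values were also compared by exact permutation tests over libraries.

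The 31 genes, the pathway and marker lists and the alternatives were chosen with earlier results of these data known. Values in every library are given for Cpt1a, Cpt2, Slc25a20, Hadha, Hadhb, Ppara, Ppard, Pdk4, Acat1 and Oxct1 and for the 5 genes with the smallest p in each comparison. Of each pathway list, the 2 genes with the smallest p in SAHH-het minus SAHH-WT and the 1 with the highest mean are named. In the list of ketone production and transport, 2 genes that this rule picks are not reported here. Etfa and the ratios were chosen after their values were seen. Alternatives were pseudocounts of 0.1 and 1, filters at 1 FPKM and none, TPM rescaling, median-ratio scaling, quantile normalization, a replicate block, robust eBayes, sample weights, only the libraries compared, an adjusted p under 0.1 and leaving out each library. Voom on recovered fragments, a block in SAHH-WT and SAHH-het only and a brown fat marker covariate were added after seeing the data.

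SAHH-WT and SAHH-het libraries of the same number deviated together from the means of their groups (correlations of 0.29, 0.23 and 0.18), while pairs with SAHH-het+betaine gave -0.35 to 0.08. Of the 9 libraries, 4 correlated best with a library of their own number when set against the libraries of other groups. What a number marks is not in the labels, and whether it marks pairs was not tested.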

Additional observations from a re-analysis of the deposited data

How the results depend on the processing

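Under each of the 24 alternatives 0 of the 31 genes were called in each comparison, and the lowest adjusted p of any of them was 0.135, for Etfb in SAHH-het minus SAHH-WT. Leaving out 1 library gave medians of 0.16 to 1.25 for SAHH-het minus SAHH-WT, -0.0719 to 0.62 for SAHH-het+betaine minus SAHH-het and 0.47 to 1.48 for SAHH-het+betaine minus SAHH-WT. With the brown fat marker level as a covariate the medians were -0.00780, 0.24 and 0.26 in the same order. This covariate was far lower in SAHH-WT 1 than in the other libraries, so these fits lean on that library. TPM rescaling shifted the median of all genes by -0.27, -0.0699 and -0.33 in the 3 comparisons, and relative to the median of all genes under that scaling the medians of the 31 genes were 0.75, 0.28 and 1.15. With the replicate block over all 9 libraries the medians were 0.80, 0.29 and 1.19, as without it. They were the same with the block in SAHH-WT and SAHH-het only, since a block changes errors and not these means. Neither block changed a call.

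Alternatives were followed gene by gene for the 17 genes the naming rule picks, and for the other genes only the counts of higher genes in the report cover them. Of the 17, some changed sign, in changes that had not passed, and the cause was not tested. In SAHH-het minus SAHH-WT, TPM rescaling gave -0.0206 for Ppard, -0.0839 for Pdk4 and -0.0203 for Oxct1, and Pdk4 was -0.16 with quantile normalization and -0.47 with sample weights. With the brown fat covariate the values were -0.16 for Cpt2, -0.10 for Slc25a20, -0.0588 for Hadha, -0.21 for Hadhb, -1.02 for Pdk4, -0.15 for Acat1, -0.29 for Oxct1, -0.29 for Acadvl and -0.0611 for Hsd17b4. In SAHH-het+betaine minus SAHH-het, Acot2 was -0.0116 with TPM rescaling and Eci1 0.0863 with quantile normalization. In SAHH-het+betaine minus SAHH-WT, Ppard was -0.26 with TPM rescaling and Oxct1 -0.16 with the covariate. Leaving out 1 library turned the sign of further changes, whose ranges were in SAHH-het minus SAHH-WT -0.89 to 0.82 for Pdk4, -0.14 to 0.61 for Oxct1 and -0.13 to 1.24 for Acadvl, in SAHH-het+betaine minus SAHH-het -0.18 to 0.33 for Acot2, -0.20 to 0.11 for Cpt1a, -0.10 to 0.65 for Slc25a20, -0.0422 to 0.76 for Acat1, -0.16 to 0.34 for Oxct1, -0.19 to 0.21 for Acad10 and -0.42 to 0.19 for Eci1, in SAHH-het+betaine minus SAHH-WT -0.0406 to 0.24 for Ppard. Fragments recovered per library were near equal, but the divisor behind the FPKM was not, and 3 libraries per group limit the tests.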
